A study of Mus musculus with 3 samples.

Results

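The Notch receptors (Notch1, Notch2, Notch3 and Notch4), 3 of their ligands (Dll4, Jag1 and Jag2) and 3 genes known as targets of the pathway (Nrarp, Hey1 and Hes1) were followed in VE-Cadherin+/CD45+ yolk sac cells in which Etv2 was switched on. The 10 genes were taken by name from the gene annotation of the array, where 12 of its 55681 probes carry them, out of 36095 genes with a probe. Notch1 and Notch2 have 2 probes each and the others 1. The cells were sorted from mouse embryos of mixed strain (B6/CBA and others) and were not treated after the sort. One group, Control, has 1 sample, from E10.5 embryos; the alleles that these embryos carry are not named in the labels. The other group, Tie-2-Etv2, has 2 samples from embryos in which an Etv2 transgene (Etv2 Tg) is turned on by a Tie-2 Cre transgene (Tie-2 Cre Tg), and no embryonic day is stated for them. The Tie-2 promoter that drives this Cre is known to be active in endothelial cells and in the blood cells that arise from them. Whether the Tie-2-Etv2 pair comes from different litters or pools of embryos is not given in the labels, so its spread may be technical.

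Notch receptors are membrane proteins that are cut when a Delta-like or Jagged ligand on a neighbouring cell binds them. The freed inner part goes to the nucleus, joins the DNA-binding protein Rbpj and switches on genes such as the repressors of the Hes and Hey families and Nrarp, which feeds back on the pathway. In embryonic vessels the pathway is known for arterial identity and for the step at which blood cells leave the endothelium, with Dll4, Notch1 and Notch4 as the members most associated with endothelial cells. Etv2, of the ETS family of transcription factors, is known for the early formation of endothelium and blood. No gene of the Notch pathway was used to sort the cells.

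The probes are 60 bases long and carry the sequence of a stretch of each transcript, so each value reads that stretch alone. The first 30 bases of 7 of them are shown because the results turn on the 3 genes with the largest differences and on the pairs of Notch1 and Notch2. Positions are those of the whole probe on build mm9, per the file headers, on the strand of the probe, and no base is set in capitals.
Notch4, chr17:34725120-34725179, plus strand: gttgatttcgagaatccctaaactctggaa
Nrarp, chr2:25038038-25038097, plus strand: ttttttgaatcttggttatgaacccaattt
Dll4, chr2:119160779-119160838, plus strand: tttgcccagactccatcctcacagctgggc
Notch2, 5′ probe, chr3:97951233-97951292, plus strand: tcttcaccacactctgcatctgactggtca
Notch2, 3′ probe, chr3:97953914-97953973, plus strand: ccacttgaagtcttgcatagaaatgaacca
Notch1, 5′ probe, chr2:26319440-26319499, minus strand: tcctgcagtggagggggccttgagacaggc
Notch1, 3′ probe, chr2:26314630-26314689, minus strand: ttgcttctttccaaaatcgaaaagaaagaa
The Notch2 probes begin at bases 7448 and 10129 of the transcript, 2681 bases apart, and the Notch1 probes at bases 5898 and 8221, 2323 bases apart. The share of G and C among the 12 probes ran from 26.7% for Hes1 to 55.0% for the 5′ probes of Notch1 and Notch2 and for Dll4.

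Well above background were 24208 to 27007 probes per array, 43.5% to 48.5% of all. The array of Tie-2-Etv2 replicate 1 was dimmer, with a 75th percentile of detected probes of 1199 intensity units against 2074 on the control array and 2095 on replicate 2. Signals below are given as measured, with the error that the scanner software gives for the spot, and differences are on the log2 scale after that percentile was subtracted from each array. Etv2 itself lay above the control with both of its probes, 14.1-fold in the mean with one (4.42 and 3.22 on replicates 1 and 2 on the log2 scale, adjusted p = 0.229) and 5.0-fold with the other (2.66 and 1.98), and Ptprc, which encodes CD45, differed by -0.42 and -0.50. The VE-cadherin gene Cdh5 was 11.5-fold higher (4.46 and 2.60, adjusted p = 0.324), although both groups were sorted on that protein. The labels do not say whether either Etv2 probe reads RNA of the transgene.

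Of the 10 genes, Notch4, Nrarp and Dll4 were at least 2-fold higher than the control on both Tie-2-Etv2 arrays, and none was at least 2-fold lower on both. Over all 19576 genes tested, 3.16% were at least 2-fold higher on both arrays and 5.15% at least 2-fold lower. Among the other receptors, Notch1 was within 2-fold of the control on both arrays by its brighter probe, and Notch2 and Notch3 had negative differences; whether the receptors differ from each other in this was not tested. Of the 8 genes well above background on all 3 arrays, Notch1, Notch4, Dll4, Jag2, Nrarp and Hey1 had positive differences on both Tie-2-Etv2 arrays. Notch2 and Hes1 had negative ones, Hes1 at -0.01 on replicate 1. The median difference over all genes tested was also positive, 0.08 on replicate 1 and 0.05 on replicate 2. How many of all genes lay on each side of the control was not counted. None of the members passed limma's test at an adjusted threshold of 0.05, which called 0 of 19576 genes, or 0%, with 2120 genes at an unadjusted p under 0.05 and a smallest adjusted p of 0.193. With normexp background correction 616 of 19576 genes passed and with no filter on dim probes 451 of 36088, Notch4 and Nrarp among them each time. The normexp correction added an offset of 50 intensity units to each signal, which makes log2 differences of dim probes smaller.

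Notch4 encodes a receptor found mainly in endothelial cells. Its probe gave a signal of 41.3 ± 5.34 intensity units in the control, 518 ± 51.8 in the first Tie-2-Etv2 replicate and 279 ± 28.0 in the other. Both Tie-2-Etv2 values lay far above the control value and apart from each other by more than the spot errors. After scaling, Notch4 exceeded the control 21.7-fold on replicate 1 and 6.68-fold on replicate 2. The scaled log2 level was -2.06 ± 1.20 (SD, n = 2) in the Tie-2-Etv2 arrays against -5.65 on the control array, a difference of 3.59 ± 0.81 (SE; 95% interval 1.35 to 5.83; adjusted p = 0.288 in limma's test). Unlike the adjusted p, the intervals here and below are not adjusted for the number of probes tested. The difference was 2.41 with normexp correction, where the adjusted p was 1.71e-05, and 3.59 with no filter on dim probes, where it was 0.0126. Over the alternatives with a test the adjusted p ran from 1.71e-05 to 0.463.

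Notch1, the receptor best known for arterial and blood stem cell fate, was measured by 2 probes. The 5′ probe gave 49.7 ± 5.81 units on the control array, 55.8 ± 6.05 on replicate 1 and 77.9 ± 8.17 on replicate 2, well above background on each. Its scaled differences were 0.96 and 0.63, both positive and both under 2-fold, with a mean of 0.79 ± 0.35 (SE; 95% interval -0.18 to 1.77; adjusted p = 0.570). The 3′ probe gave 4.43 ± 2.89, 12.2 ± 2.65 and 10.8 ± 2.58 units and was well above background on replicate 1 alone. There it was at least 1.53-fold above the lowest level measurable on the control array, and on replicate 2 no fold can be given.

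Notch2, a receptor with known roles in myeloid cells and in vessel walls, had negative differences with both of its probes. The 3′ probe gave 1370 ± 137 units on the control array, 390 ± 39.1 on replicate 1 and 967 ± 96.8 on replicate 2, and the 5′ probe 39.8 ± 5.09, 14.5 ± 2.96 and 20.9 ± 3.34. Neither probe's Tie-2-Etv2 signals overlapped the control within the spot errors, as measured. After scaling the 3′ probe differed by -1.02 and -0.52 (mean -0.77 ± 0.39 SE; 95% interval -1.85 to 0.31; adjusted p = 0.634) and the 5′ probe by -0.67 and -0.95 (mean -0.81 ± 0.34 SE; adjusted p = 0.553). The 2 probes thus gave nearly the same mean, but replicate 1 was the further from control with one and replicate 2 with the other.

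Notch3, known from smooth muscle and pericytes around vessels, gave 57.5 ± 6.40 units on the control array and 33.0 ± 4.03 on replicate 2, and 9.60 ± 2.41 on replicate 1, too dim to be well above background. It was thus at least 3.15-fold lower on replicate 1 and 1.76-fold lower on replicate 2. The mean measured difference was -1.30 ± 0.53 (SE; 95% interval -2.79 to 0.18; adjusted p = 0.532), and it was -0.20 with normexp correction. Of 11 mural and smooth muscle markers, 3 were tested and 1 (Acta2) was at least 2-fold lower on both arrays. Acta2 differed by -1.61 and -1.68, Tagln by -0.81 and -1.31 and Pdgfrb by -0.41 and 0.30. Abcc9 was above background on replicate 1 alone, and Cspg4, Des, Cnn1, Kcnj8, Myocd, Rgs5 and Myh11 on no array. The summed level of the list was 20.2% of the array's 75th percentile on the control array, 12.5% on replicate 1 and 10.4% on replicate 2.

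**Figure D1:**
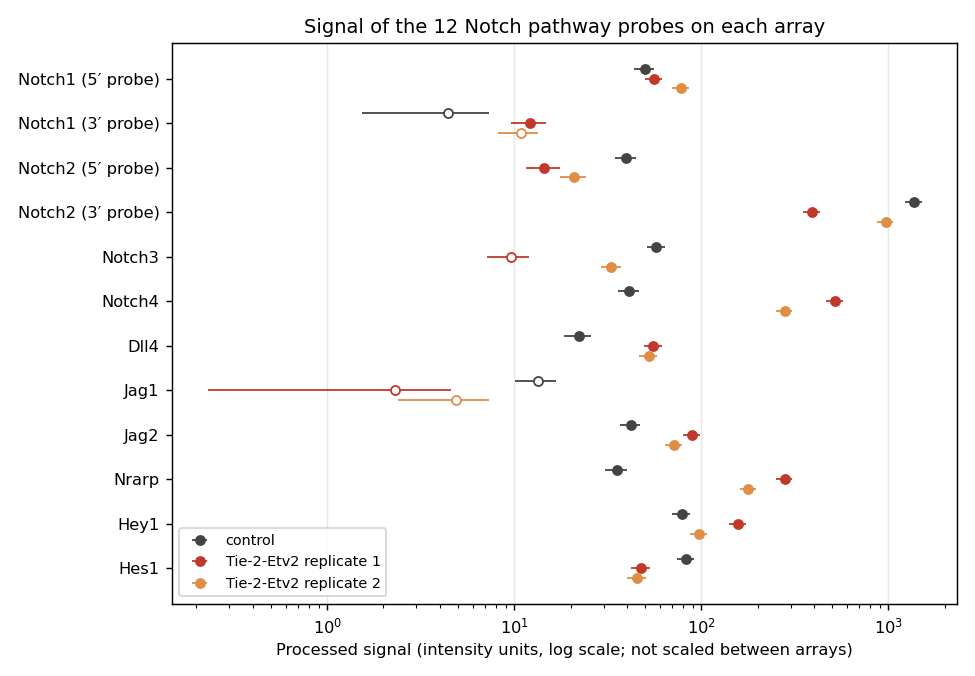
Processed signal in intensity units (log axis) of the 12 probes on the control array (grey) and the 2 Tie-2-Etv2 arrays (red and orange); filled points are well above background, open points are not, and bars are the scanner software's error of the spot, cut short at the lower end for Jag1 on replicate 1, where the error is as large as the signal. Notch4 goes from 41.3 to 518 and 279 units and Nrarp from 35.2 to 279 and 178, while Notch2 goes from 1370 to 390 and 967; the arrays are not scaled to each other here.

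Among the ligands, Dll4, which activates Notch receptors in arterial and sprouting endothelium, was the one at least 2-fold higher on both arrays. Its signal was 22.1 ± 3.62 units on the control array, 55.3 ± 6.0 on replicate 1 and 52.2 ± 5.72 on replicate 2. As measured, the Tie-2-Etv2 signals lay close together and above the control by more than the spot errors. After scaling for the dimmer replicate 1 array, the 2 replicates were 0.89 apart on the log2 scale. The control signal stood near the lowest level detected on that array, 13.8 units. Dll4 exceeded the control 4.33-fold on replicate 1 and 2.34-fold on the other, a mean difference of 1.67 ± 0.50 (SE; 95% interval 0.27 to 3.07; adjusted p = 0.389). With normexp correction the difference was 0.89 and Dll4 was no longer at least 2-fold higher on both arrays. The offset of 50 units in that correction is larger than the 22.1 units of Dll4 on the control array.

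Jag2, a Jagged ligand, gave 42.1 ± 5.13 units on the control array, 89.2 ± 9.20 on replicate 1 and 71.4 ± 7.53 on replicate 2. Both Tie-2-Etv2 signals were above the control, by 3.66-fold and 1.68-fold after scaling (mean 1.31 ± 0.59 SE; 95% interval -0.32 to 2.94; adjusted p = 0.576). Jag1, the Jagged ligand of arterial endothelium and vessel walls, gave 13.4 ± 3.25, 2.30 ± 2.31 and 4.88 ± 2.48 units. It was well above background on none of the 3 arrays, so no fold and no direction can be given for it.

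Nrarp, a small ankyrin-repeat protein induced by Notch signalling that dampens it, had the second largest difference of the 10 genes. Its signal was 35.2 ± 4.73 units on the control array, 279 ± 28.0 on replicate 1 and 178 ± 18.0 on replicate 2. Both Tie-2-Etv2 signals lay far above the control. After scaling, Nrarp exceeded the control 13.7-fold on replicate 1 and 5.01-fold on the other, and its scaled level was -2.83 ± 1.03 (SD, n = 2) against -5.88 on the control array. The mean difference was 3.05 ± 0.71 (SE; 95% interval 1.08 to 5.02; adjusted p = 0.302), with 1.88 and an adjusted p of 0.00234 under normexp correction and an adjusted p of 0.0349 with no filter on dim probes, in a range of 0.00234 to 0.474 over the alternatives with a test.

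Neither of the repressor targets was at least 2-fold higher on both arrays. Hey1, a repressor of arterial endothelium, gave 78.4 ± 8.49 units on the control array, 157 ± 15.9 on replicate 1 and 96.9 ± 10 on replicate 2. It was 3.45-fold higher on replicate 1 but 1.22-fold on replicate 2, so the replicates were further apart than replicate 2 was from the control (mean 1.04 ± 0.73 SE; 95% interval -0.98 to 3.06; adjusted p = 0.778). Hes1, a repressor that many tissues switch on in response to Notch, gave 83.0 ± 8.92, 47.6 ± 5.44 and 45.4 ± 5.26 units. Its signals were lower on both Tie-2-Etv2 arrays, but after scaling the difference was -0.01 on the dimmer replicate 1 array and -0.89 on replicate 2 (mean -0.45 ± 0.50 SE; 95% interval -1.83 to 0.94; adjusted p = 0.904). Whether the differences of Nrarp, Hey1 and Hes1 differ from each other was not tested.

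**Figure D2:**
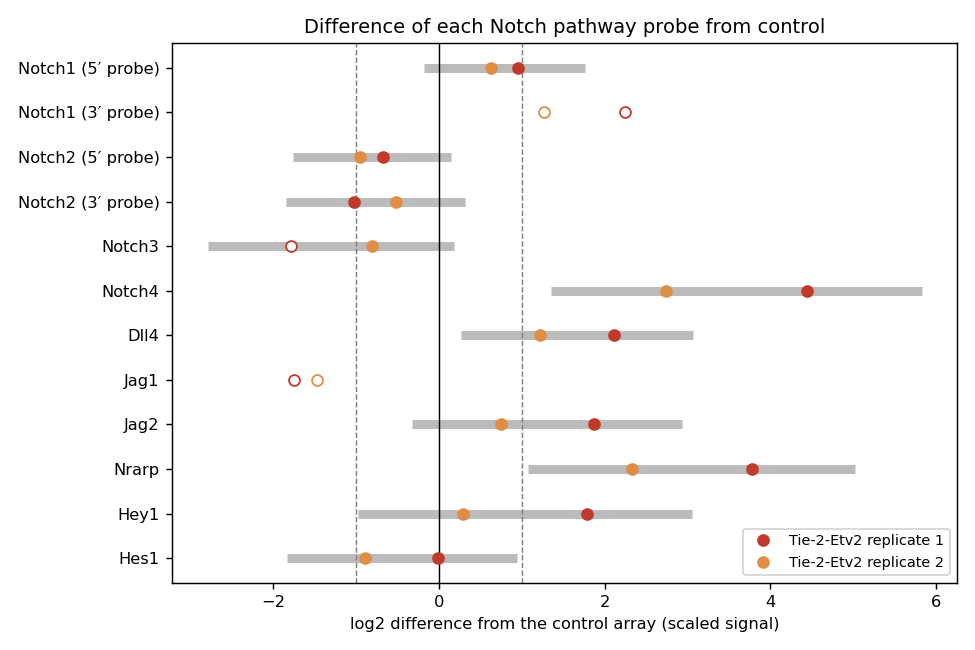
Log2 difference of each probe's scaled signal from control for Tie-2-Etv2 replicates 1 (red) and 2 (orange); grey bars are limma's 95% intervals of the mean difference where the probe was tested, dashed lines mark 2-fold, and open points rest on a value not well above background on that array or on the control. Both points of Notch4, Dll4 and Nrarp lie beyond 2-fold on the higher side, and the interval of Notch4 runs from 1.35 to 5.83. The intervals are not adjusted for the number of probes tested.

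By the brightest probe, replicate 1 gave the larger distance from the control for 7 of the 8 genes well above background on all 3 arrays. The gap was 1.70 on the log2 scale for Notch4, 1.45 for Nrarp and 1.5 for Hey1, and Hes1 was the exception. The 5′ probe of Notch2, at -0.67 and -0.95, was further from control on replicate 2. The share of all genes further from control on replicate 1 was not counted. With replicate 1 alone, 5 members were at least 2-fold higher (Notch4, Dll4, Nrarp, Jag2 and Hey1) and 2 lower (Notch2 and Notch3), beside 9.85% and 8.33% of genes tested; with replicate 2 alone, 3 were higher (Notch4, Dll4 and Nrarp) and 0 lower, beside 4.08% and 6.93%. Etv2, Cdh5 and Tek, the gene whose promoter drives Cre, were also further from control on replicate 1, Tek at 3.04 and 2.02.

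Across the other ways of processing both arrays, the plot of differences by processing shows Notch4, Nrarp, Dll4, Jag2, Hey1 and Notch1 above the control each time. Notch2, Notch3 and Hes1 were below it, but Hes1 only by -0.01 under normexp correction, which is level with the control. Notch3 has no value where probes had to be above background on all 3 arrays.

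**Figure D3:**
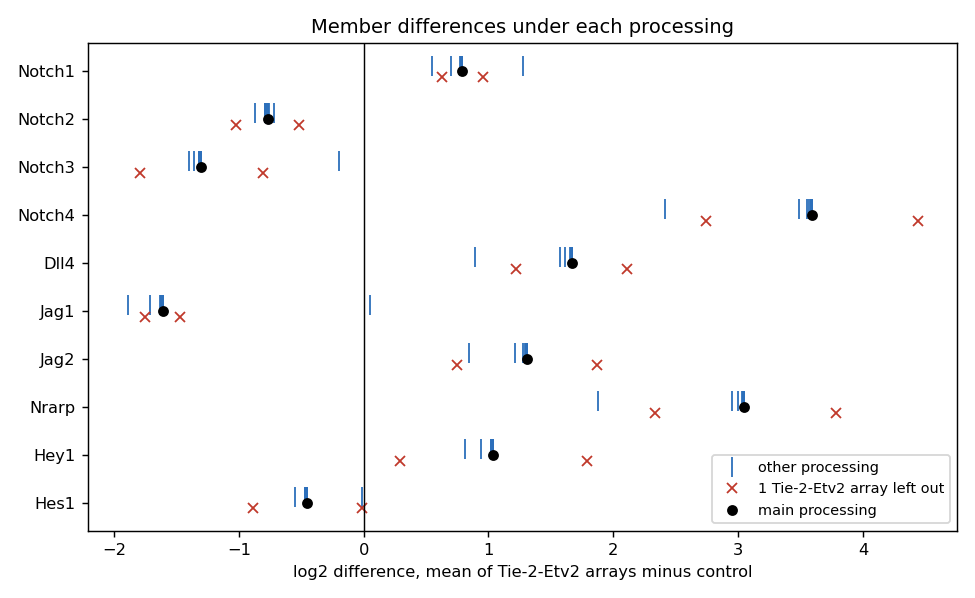
Mean log2 difference of the 10 genes from control under the main processing (black points), under each other processing (blue bars) and with 1 of the 2 Tie-2-Etv2 arrays left out (red crosses); values not above background are drawn as measured. Notch4 stays between 2.41 and 3.59 under the other processing and Nrarp between 1.88 and 3.05, and Jag1, above background on no array, reaches 0.05 under normexp correction.

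The genes nearest to Notch4 in their pair of differences were sought among 17196 genes well above background on all 3 arrays. Cdh5 was the nearest, at a distance of 0.147 on the log2 scale from the pair of Notch4 (4.44 and 2.74), followed by 2 transcripts without a gene symbol at 0.158 and 0.200. In all, 12 genes lay within 0.5. With 2 arrays and 1 control, this likeness is a description of 2 differences that share the control array.

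Several marker lists moved with these genes. Of 15 endothelial markers, 10 were at least 2-fold higher on both arrays and 0 lower. The summed level of the 15 was 1340% of the 75th percentile on the control array, 5570% on replicate 1 and 2920% on replicate 2. That is the same order of arrays as for Notch4, Nrarp and Dll4. Most of the sum on each array came from Egfl7, with scaled log2 levels of 3.05 on the control array, 5.39 on replicate 1 and 4.41 on replicate 2. Of 12 macrophage markers 11 were at least 2-fold lower and 1 higher, with summed levels of 7390%, 550% and 1720%. Of 11 tested visceral endoderm markers 10 were lower (3450%, 184% and 1460%), as were 6 of 8 tested erythroid markers (4330%, 837% and 1200%) and 5 of 6 tested mesenchyme and mesothelium markers (137%, 15.4% and 7.74%). Of 6 leukocyte markers 0 were beyond 2-fold on both arrays in either direction (3800%, 3510% and 3470%), and of 7 megakaryocyte markers 3 were higher and 1 lower (726%, 621% and 545%). The part of these shifts in the differences of the Notch genes was not tested. In a bulk sample, a different share of cells that express a gene and a different amount of its RNA per cell cannot be told apart.

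Of the 84 other genes of the pathway listed, 82 were measured and 70 tested: 5 were at least 2-fold higher on both arrays, 6 at least 2-fold lower and 59 in between, and 0 passed the adjusted test. Their median difference was 0.16 (0.25 on replicate 1 and 0.08 on replicate 2), beside 0.07 (0.08 and 0.05) over all genes tested. The share beyond 2-fold on both arrays was thus 7.14% higher and 8.57% lower in these lists, beside 3.16% and 5.15% over all genes tested. The genes beyond 2-fold fell into 4 of the 8 lists. Of them, 3 higher and 3 lower were among the 12 tested genes of a single list, the other reported Notch-responsive or arterial genes. Ligand endocytosis and glycosylation held 2 higher and 1 lower of 10, negative regulators 1 lower of 10, and other Hes and Hey genes 1 lower of 5.

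Of 5 other ligands 3 were tested and 0 were beyond 2-fold on both arrays by the brightest probe of the gene. Dlk1, a secreted and membrane-bound relative of the Delta ligands, differed by -0.81 and -1.16 with its brighter probe, which stands for the gene in the count, and by -1.31 and -1.38 with its other probe, which was thus beyond 2-fold lower on both arrays. Dlk2 differed by 0.40 and 0.25 (0.23 and 0.45 with its second probe) and Dll3 by 0.27 and 0.21. Dll1 and Dner were above background on no array. Dll4 and Jag2 were thus the canonical activating ligands with a measurable level on each array.

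Of 10 genes for ligand endocytosis and receptor glycosylation, 2 were higher and 1 lower. Neurl3, a ubiquitin ligase of the Neuralized family, differed by 1.90 and 1.59 (adjusted p = 0.264). Mfng, the Manic fringe glycosyltransferase, which adds sugar to Notch receptors and so changes which ligand they answer to, differed by 1.98 and 1.20 (adjusted p = 0.377), and its second probe by 1.93 and 1.21. Neurl1a, another Neuralized ligase, differed by -1.76 and -1.14, with -1.65 and -1.11 for its second probe. Lfng and Rfng, the other fringe genes, differed by 0.32 and -0.23, and by -0.06 and 0.02 (-0.51 and 0.65 with the second Rfng probe); whether the fringe genes differ from each other in this was not tested.

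None of 9 tested genes for the proteases that cut the receptor was beyond 2-fold on both arrays. Aph1b, a gamma-secretase subunit, differed by -1.73 and -0.80, while its second probe gave 0.09 and -0.43. Psen2, a catalytic subunit of the same enzyme, differed by 0.97 and 0.69, and Adam10, which makes the first cut at the membrane, by 0.84 and 0.25. Ncstn, a further gamma-secretase subunit that was picked out after its values were seen, differed by 4.01 on replicate 1 and 0.16 on replicate 2, the widest gap between the replicates in these lists.

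In the nucleus, Rbpj differed by -0.36 and -0.28 (-0.15 and -0.46 with its second probe), and 0 of 9 genes of its complex and 0 of 12 tested corepressors were beyond 2-fold on both arrays. Kat2b, an acetyltransferase, differed by -0.45 on replicate 2 and, being below background on replicate 1, was at least 3.17-fold lower there. Maml3, which encodes a Mastermind coactivator, differed by 0.52 and 0.41 (1.10 and 0.63 with a dimmer probe), and its relative Maml2, not above background on the control array, had a mean bound of at least 1.41-fold higher. Tle1, a Groucho corepressor that Hes proteins recruit, differed by 0.96 and 1.10 with its brightest probe, and by 0.54 and 0.55 and by 0.30 and 0.42 with its other probes. The histone deacetylase genes Hdac2 and Hdac1 differed by 0.55 and 0.43 and by 0.29 and 0.25, and the other probes of Hdac1 gave 0.12 and 0.29, and -0.12 and 0.16.

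Of 10 tested negative regulators, Dtx4, a Deltex ubiquitin ligase that acts on the receptor, was 2-fold or more lower on both arrays, at -3.94 and -1.51 (adjusted p = 0.528). Its relative Dtx3 differed by 0.97 and 1.0, and Nedd4, a ubiquitin ligase of membrane proteins, by 0.95 and 0.73 with its brighter probe but by -0.41 and 1.40 with the other, which was above background on 2 of the 3 arrays. Numb, which holds back Notch, differed by 0.92 and 0.62. The median of the list was 0.01, and Dtx2, Itch, Aak1, Dtx3l and Numbl differed in the mean by -0.07 to 0.02.

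Of the other Hes and Hey family genes 5 of 10 were tested. Bhlhe40, a repressor of stress and clock responses, differed by -1.91 on replicate 2 and was below background on replicate 1, with a bound of -2.37 on the log2 scale (adjusted p = 0.248 for the measured values). Hes5, a direct Notch target in many tissues, was not above background on the control array and was above it on both Tie-2-Etv2 arrays, at least 1.68-fold higher in their mean; on replicate 2 its value lay under the lowest level detected on the control array. Hes6 differed by 0.36 and 0.46, and Hey2, Heyl, Helt, Hes3 and Bhlhe41 were above background on no array.

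The list of other reported Notch-responsive or arterial genes was split, with 3 of 12 tested genes at least 2-fold higher and 3 lower. Gja4, the gap junction protein connexin 37 of arterial endothelium, differed by 3.91 and 2.18 (adjusted p = 0.347), Vegfc, a growth factor, by 3.68 and 1.77 (adjusted p = 0.431) and Gata2, a blood and endothelial transcription factor, by 2.38 and 1.68 (adjusted p = 0.283). Cxcr4, a chemokine receptor, differed by -2.11 on replicate 2, and its bound was -1.73 on replicate 1, being below background there. Ccnd1, the gene of cyclin D1, differed by -3.50 and -1.62, and Acvrl1, a receptor of arterial endothelium, by -1.18 and -2.13. Arterial genes of the list did not move as one: Efnb2, the arterial ephrin, differed by 1.02 and -0.68, Bmx by -0.10 and 0.01, and Gja5, connexin 40, was above background on replicate 1 alone.

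**Figure D4:**
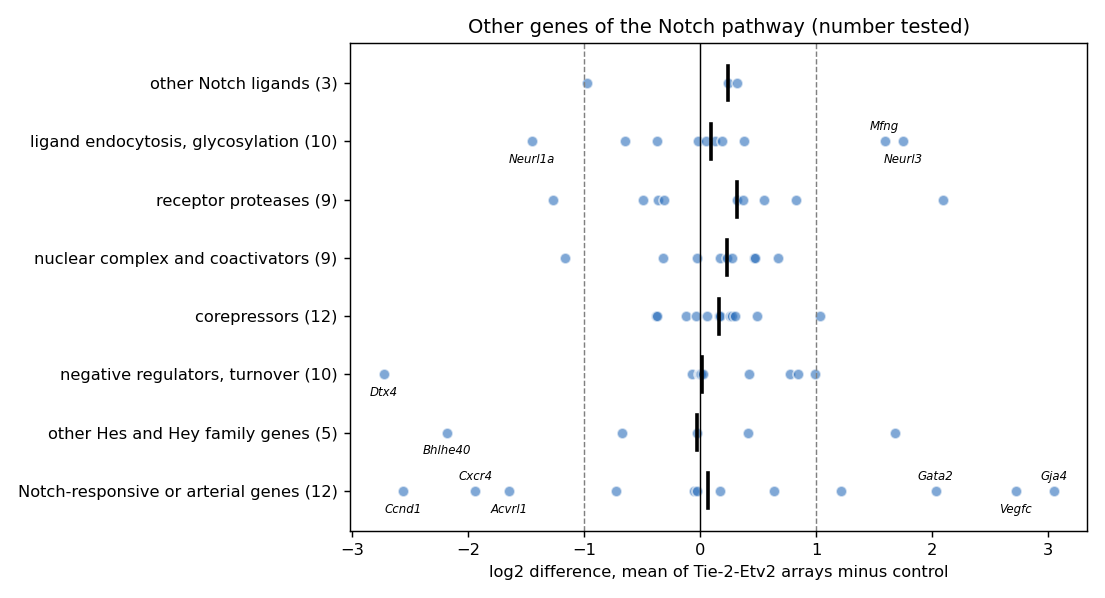
Mean log2 difference from control of each tested gene in the 8 pathway lists (points; the number tested stands after each list name), with the median of the list as a black bar, dashed lines at 2-fold and names on genes at least 2-fold apart in the same direction on both arrays. The medians lie between -0.03 and 0.32, while single genes reach 3.05 (Gja4) and -2.73 (Dtx4); the unnamed protease gene at 2.09 is Ncstn, whose replicates were at 4.01 and 0.16.

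The stretch before the start of the 3 genes that were at least 2-fold higher on both arrays is shown as context for genes that moved together. RefSeq entries of build GRCm38.p6 were matched for 8 of the 10 genes; there were none for Hey1 and Hes1 in the table used. Sequences run from 250 bases before the start up to the gene model, on the strand of the gene; for Notch4, whose gene model begins before that start, 241 bases are shown. Capitals mark GGAAG, which holds the core GGAA bound by many ETS factors, or its reverse complement CTTCC. GGAA followed by another base, as in the stretch before Nrarp, is not marked and was not sought as an ETS match.
Notch4, chr17:34564045-34564285, plus strand: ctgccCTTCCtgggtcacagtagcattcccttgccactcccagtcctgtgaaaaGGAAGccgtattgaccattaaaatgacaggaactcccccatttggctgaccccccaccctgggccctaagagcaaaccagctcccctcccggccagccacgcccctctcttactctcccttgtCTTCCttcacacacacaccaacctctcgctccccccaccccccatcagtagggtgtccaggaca
Dll4, chr2:119325534-119325783, plus strand: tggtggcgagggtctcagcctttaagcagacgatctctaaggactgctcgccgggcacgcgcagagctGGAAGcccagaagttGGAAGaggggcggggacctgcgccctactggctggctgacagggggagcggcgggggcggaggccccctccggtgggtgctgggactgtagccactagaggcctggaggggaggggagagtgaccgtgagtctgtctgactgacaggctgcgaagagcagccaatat
Nrarp, chr2:25180508-25180757, plus strand: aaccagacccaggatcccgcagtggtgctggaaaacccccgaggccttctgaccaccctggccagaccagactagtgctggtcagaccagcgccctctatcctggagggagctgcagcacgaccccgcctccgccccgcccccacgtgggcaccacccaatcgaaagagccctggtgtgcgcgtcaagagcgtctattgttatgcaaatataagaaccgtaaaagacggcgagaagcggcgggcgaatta
In the whole 250 bases before each start GGAAG was found, on either strand, 3 times before Notch4, 2 times before Dll4 and 0 times before Nrarp. Of the other 5 genes with an entry, Notch2 has 1 match and Notch1, Notch3, Jag1 and Jag2 have 0. A match of this short word is common: 64.1% of 32851 RefSeq promoters of that length hold it. The longer ETS site CCGGAAG, which contains GGAAG and is held by 6.91% of promoters, and GTGGGAA, the core bound by Rbpj, held by 5.42%, were found before none of the 8 genes. The absence of these letters from the window says nothing about sites elsewhere.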

How the data were processed

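Expression was measured on 1-colour Agilent arrays of design 028005, with 1 control and 2 Tie-2-Etv2 samples on 1 slide. The intensity of each spot came from Agilent Feature Extraction, version 10.7 per the submitters' processing notes and 10.7.3.1 per the file headers, which subtracts background and gives very dim spots a surrogate value. A deposited table of log2 values, centred on the median of each row, equalled the log2 processed signal to within 0.01 for 100% of 55668 probes after constants of 0.756 and -0.0161 were allowed for the Tie-2-Etv2 arrays, and served as an alternative. Its column medians were 0, 0.138 and 0.

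Control spots and 168 to 174 outlier spots per array were left out, and no other spot was saturated. Replicate spots were averaged on the log2 scale. Each array's 75th percentile, taken over the 22754 probes detected well above background on every array because under 50% of probes were detected, was subtracted. The test took probes that were well above background in the control or in both Tie-2-Etv2 samples (26208 probes, 19576 genes); a gene is its tested probe with the highest mean of both groups. The two-sided test was that of limma 3.58.1 (lmFit, then eBayes) under R 4.3.3, with p-values adjusted over all probes tested by Benjamini-Hochberg and a threshold of 0.05. Its spread was that of the Tie-2-Etv2 pair, which the lone control was assumed to share; moderated degrees of freedom were 3.96. An exact permutation test of 1 against 2 arrays cannot go below 0.333. Simulated data served to test the fit. In counts of 2-fold differences, values not above background were raised to the lowest level detected on that array (-7.23, -6.83 and -7.546 on the scaled log2 scale), and a bound ("at least") is against that level. The number of arrays limits the precision.

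RefSeq names of GRCm38.p6 replaced older ones where accession (26582 probes), symbol (2602) or synonym (492) matched; 26005 kept the file's name. Pathway genes were to be named where they passed the test; as none did, the rule named up to 3 tested genes per list, on the same side of control on both arrays and ranked by whichever difference was the smaller; others (Rbpj, Lfng, Rfng, Numb, Dtx2, Itch, Aak1, Dtx3l, Numbl, Ncstn, Efnb2, Bmx, Gja5, Gata2, Ccnd1, Acvrl1 and those above background on no array) were named after their values were seen. Aph1c and Aes were not matched to a probe by name. The genes and lists were chosen with earlier results of these data known. Promoter and probe sequences were read from RefSeq entries and the array files, and motifs were sought on both strands.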

Additional observations from a re-analysis of the deposited data

How the results depend on the processing

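No gene passed limma's adjusted test under the main processing, with either percentile or median scaling, quantile normalization, spike-in scaling (added after the data were seen), the deposited log2 table, means over probes, or probes above background on all 3 arrays. With normexp correction, which added an offset of 50 units to each signal, 616 of 19576 genes passed, and 451 of 36088 when dim probes were kept. The cause was not tested. Under normexp correction 310 genes were at least 2-fold higher on both arrays and 481 lower, beside 619 and 1009 under the main processing. Members at least 2-fold higher on both arrays were Notch4, Dll4 and Nrarp under each alternative on both arrays except normexp correction, which left Notch4 and Nrarp. Leaving out 1 Tie-2-Etv2 array gave 3 to 5 higher and 0 to 2 lower members, with no test. With values below background kept as measured, 1 member (Jag1) counted as lower. Jag1 reversed to 0.05 under normexp correction; it was above background on no array. Spike-in scaling, from 7 spike-in probes that differed from control by 0.177 and -0.038, moved the median difference of all genes from 0.07 to -0.03. The control signals of 4 members (Dll4, Nrarp, Notch4 and Jag2) were 22.1 to 42.1 units where the lowest detected level was 13.8, which limits their folds. No paired analysis was possible because the control has no replicate number in the labels. Values of members that are not in these sentences kept their sign under the alternatives run, although Hes1 came as near to the control as -0.01.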
